A study of Mus musculus with 29 samples.

Results

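Skeletal muscle of fasted mice that lacked p110α, the catalytic subunit of phosphoinositide 3-kinase (PI3K) encoded by Pik3ca, was compared with muscle of fasted mice that carried the same floxed alleles without Cre. The comparison was set by the sample titles and took in 7 of the 29 libraries of the series, 3 from M-p110αKO mice (replicates 13 to 15) and 4 from floxed controls (replicates 9 to 12). All were male, on a C57BL/6J background, 2 to 3 months old, and had been deprived of food before the tibialis anterior (TA) muscle was taken. The controls were floxed at exon 1 of Pik3ca, as were the knockouts, which in addition expressed Cre recombinase from the human alpha-skeletal actin (HSA) promoter. That promoter is active in muscle fibers, so endothelial, fibroblast, immune and satellite cells of the same muscle kept the gene, and no Cre-bearing animal without floxed alleles was among the groups. The libraries set beside them were 8 of fed mice of the same line, 4 per genotype, and 14 of a second line with floxed p110β (Pik3cb) alleles, among them 3 fasted p110β-floxed controls. A genome scan described in the study's methods found the p110α-floxed mice close to fully C57BL/6, but the p110β-floxed mice of a mixed background with a smaller C57BL/6 share, so comparisons between the lines also compare backgrounds.

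PI3K is the lipid kinase through which the insulin and IGF-1 receptors activate AKT in muscle. Active AKT phosphorylates the FoxO transcription factors and keeps them out of the nucleus. When insulin falls during fasting, FoxO factors enter the nucleus and turn on genes for protein breakdown, among them the muscle ubiquitin ligases MuRF1 (Trim63) and atrogin-1 (Fbxo32), and genes for autophagy.

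Reads assigned to genes numbered 7905864 to 10520026 in the controls and 6302791 to 7734875 in the knockouts. Values are CPM, the reads of a gene relative to all assigned reads of its library, scaled by the trimmed mean of M-values (TMM), and values of p110β libraries are scaled over all 29 libraries. Differences are log2 fold changes, knockout minus control, given as the estimate ± its standard error (SE) with an adjusted p from the edgeR quasi-likelihood test across 12433 genes. A gene is said to have risen or fallen when its adjusted p was under 0.05, and since each library is known only by its title number, the p-values measure the spread between these libraries. The correlation of log2 CPM was 0.981 to 0.988 between controls, 0.974 to 0.979 between knockouts and 0.969 to 0.977 between a knockout and a control. Skeletal muscle fiber markers summed to 150000 to 171000 CPM in the controls and 151000 to 162000 CPM in the knockouts, while the T and B cell markers were at 2.07 CPM or less in sum and the neutrophil markers at 0.19 CPM or less. None of the 10 fiber markers tested passed the test, and none of the 6 adipocyte, 9 endothelial, 6 macrophage, 8 fibro-adipogenic, 6 smooth muscle and pericyte, 5 Schwann cell, 6 satellite cell, 3 tenocyte and 4 erythroid markers did by edgeR. Before adjustment, p was under 0.05 for 4 fiber markers and 1 endothelial marker, each higher in the knockouts. It was also under 0.05 for 2 Schwann cell markers and 1 macrophage, 1 fibro-adipogenic, 1 smooth muscle and 1 satellite cell marker, all lower. Among all 12433 genes, 1370 with a positive and 1458 with a negative difference reached that level. All 5 Schwann cell and 6 smooth muscle and pericyte markers had differences below 0, and all 3 tenocyte markers above 0. DESeq2 called 2 fiber markers higher and 1 macrophage and 1 satellite cell marker lower, against 493 rises and 609 falls in all genes. In whole muscle, fewer cells of a type and less RNA per cell cannot be told apart.

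The 3 fasted knockout libraries went with the p110β line, and not with the rest of their own line, at several copy genes. Rps2-ps10, a processed pseudogene, had no read in any of the 4 fasted controls, the 4 fed controls or the 4 fed knockouts of the p110α line. The fasted knockouts had 11 to 18 reads of it, and the 3 fed and 3 fasted p110β controls 10 to 20. Aldoart1, a retrogene copy of the aldolase gene Aldoa, stood at 2.34, 2.64, 2.23 and 2.46 CPM in the controls and 13.8, 17.8 and 10.8 CPM in the knockouts, a rise of 2.54 ± 0.19 (adjusted p = 1.12e-06). All 3 knockouts lay above the controls. The fasted p110β controls held 9.05 to 17.7 CPM of Aldoart1, whereas fed p110α knockouts held 3.03 to 3.98 CPM and fed p110α controls 3.12 to 3.92 CPM. Its fasted effect exceeded its fed effect by 2.56 (adjusted p = 0.000262 for the interaction, where 0.483% of all genes passed), and it was 2.13 higher on the log2 scale in fed p110β controls than in fed p110α controls (adjusted p = 2.97e-08, where 20.3% of 12760 genes passed). The pseudogene Gm12286 rose by 3.11 ± 0.32 (adjusted p = 4.54e-05) and was 2.99 higher in the p110β line, and Gm9061 had at most 1 read in any fasted control against 14 to 23 in the knockouts.

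Of 176 processed pseudogenes tested, 27 rose and 2 fell (16.5% called, against 6.52% of all genes). Of the 27, 16 were also higher in the fed p110β controls than in the fed p110α controls, 2 groups that share no library with the fasted comparison. Set against the fasted p110β controls, which shares the knockout libraries, 4 of the 27 passed the test (13.5% of all genes did). Reads of a pseudogene can come from its parent gene or be split with it by the counting, so their levels are uncertain. Other genes known to differ between mouse strains did not follow one pattern. H2-Q4, a class I histocompatibility gene, rose by 0.90 ± 0.25 (adjusted p = 0.0366, up to 0.112 with 1 library left out, and no longer called without any of replicates 9, 10, 12, 13, 14 or 15), while Nnt, which C57BL/6J mice carry in a truncated form, was at 109.9 ± 17.9 CPM in the controls and 80.2 ± 1.44 CPM in the knockouts (SD, n = 4 and 3, adjusted p = 0.202). The glycine tRNA mt-Tg had 44 to 55 reads in each control and 9 to 16 in each knockout, but 0 in each of the 6 p110β control libraries. Of the 8 p110β knockout libraries, 4 had 0 reads of it, 1 had 1, and replicates 19, 21 and 27 had 20, 32 and 41, so that it was not low throughout that line. A difference of genetic background or library set between the 3 knockout libraries and the 4 controls therefore cannot be told apart from the knockout in the values that follow. For many genes or their lists, though not for all, the comparison with fasted p110β controls or the result after a correction for GC content is given beside them.

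The labels were checked first against the targeted gene. Pik3ca (GRCm38 chr3:32397671-32468486, plus strand) was counted over all its exons, of which 1 was floxed. Its level was 175, 189, 169 and 176 CPM in the controls and 156, 158 and 186 CPM in the knockouts. The groups overlapped, at 177 ± 8.68 against 167 ± 16.8 CPM (SD, n = 4 and 3), with a log2 difference of -0.09 ± 0.14 (adjusted p = 0.748). A count over the whole gene does not show whether exon 1 was lost, so the deletion was not checked by it.

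Of the 12433 genes, 811 (6.52%) passed the test, 375 higher (3.02%) and 436 lower (3.51%) in the knockouts. The groups did not overlap in 20.7% of all genes tested, and in 352 of the genes that rose and 419 of those that fell. The median size of the change was 0.69 among the rises and 0.58 among the falls, 98 rises and 59 falls were over 2-fold, and the median over all genes was 0.003. The largest changes with a mean of at least 1 on the log2 CPM scale and separate groups included Igfn1, Mirg, Meg3, Myod1 and H19 among the rises and Actr3b, Sorbs2, Pla2g7 and Aldh1a1 among the falls. Fewer calls were made with any library left out: 411, 445, 494 and 481 without control replicates 9, 10, 11 and 12, and 532, 218 and 660 without knockout replicates 13, 14 and 15. With upper-quartile scaling, rises made up 58.1% of the calls (458 rises and 330 falls), against 46.2% with TMM.

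The calls followed base composition. The median GC content was 55% in genes that rose, 43.3% in genes that fell and 49.6% in genes not called, with a median exon length of 3442, 5564 and 4477 bases. With genes split into 10 bins of like size, the bin lowest in GC (22.1 to 41.2%) held 3 rises and 141 falls and the highest bin (57.6 to 75.5%) 80 rises and 1 fall. The slope of a library on GC content, measured from the mean of the 7 libraries, was -0.099 ± 0.059 log2 per 10 percentage points in the controls and 0.132 ± 0.135 in the knockouts (SD, n = 4 and 3). The difference of 0.231 had an exact two-sided permutation p of 0.0286, the smallest that 35 arrangements allow, and no library of either group overlapped the other. Without any 1 library it was 0.179 to 0.307, where the p could not fall below 0.0667 or 0.1. The 4 controls lay lowest of all 8 groups of the series, below the fed p110α controls (-0.019 to 0.179), the fed knockouts (0.046 to 0.142) and the fasted p110β controls (0.255 to 0.319).

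**Figure D1:**
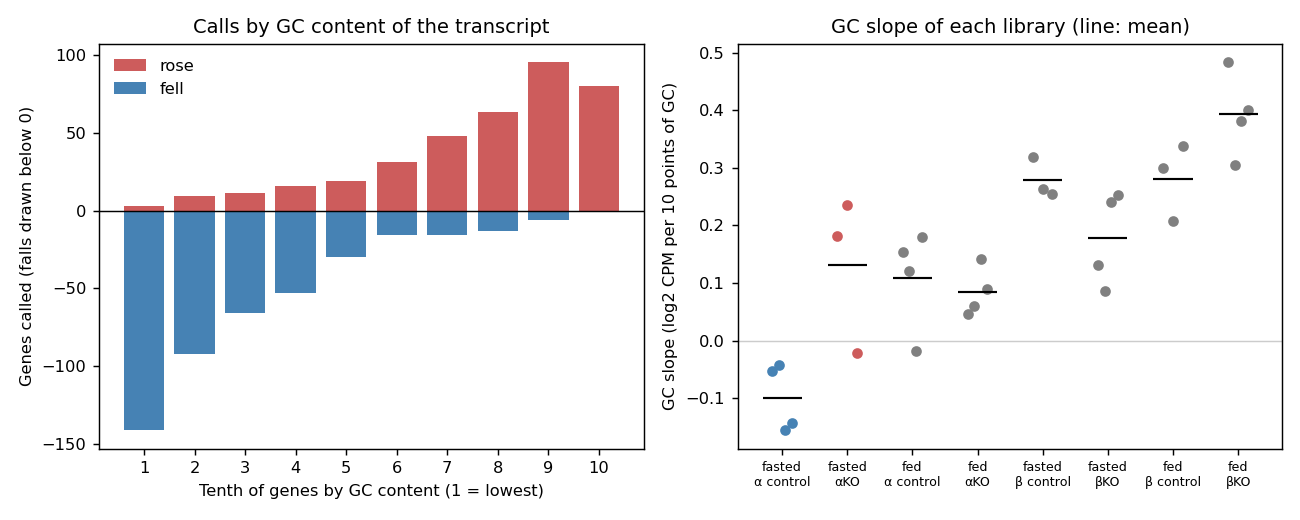
GC content and the fasted comparison. The left panel plots how many genes rose and fell in each of 10 bins of genes by GC content (percent), and the right panel the GC slope of each library (log2 per 10 percentage points) in the 8 groups. Falls outnumber rises 141 to 3 in the lowest bin, rises outnumber falls 80 to 1 in the highest, and the fasted p110α controls have the lowest slopes.

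After a correction of each library for GC content and length, 345 genes (2.77%) passed, 162 higher and 183 lower, and the medians of the lowest and highest bins went from -0.249 and 0.215 to -0.014 and -0.016. Of the original calls, 138 rises and 147 falls were also called after the correction with the same sign. Against the fasted p110β controls, 84 rises and 69 falls were called with the same sign. Between fed controls of the lines, 114 of the rises were called higher and 150 of the falls lower in the p110β line, while 3 rises and 3 falls were called the other way. Over all genes these 2 comparisons called 1725 and 2588, with 768, 872 and 1055 for the first without knockout replicate 15 or p110β controls 23 and 24, and 1421 for the second without fed p110β control 16. There were 46 rises and 41 falls, 87 genes in all, that were called after the correction and against the p110β controls as well. Since both checks use the knockout libraries again, they are not independent of the first comparison.

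**Figure D2:**
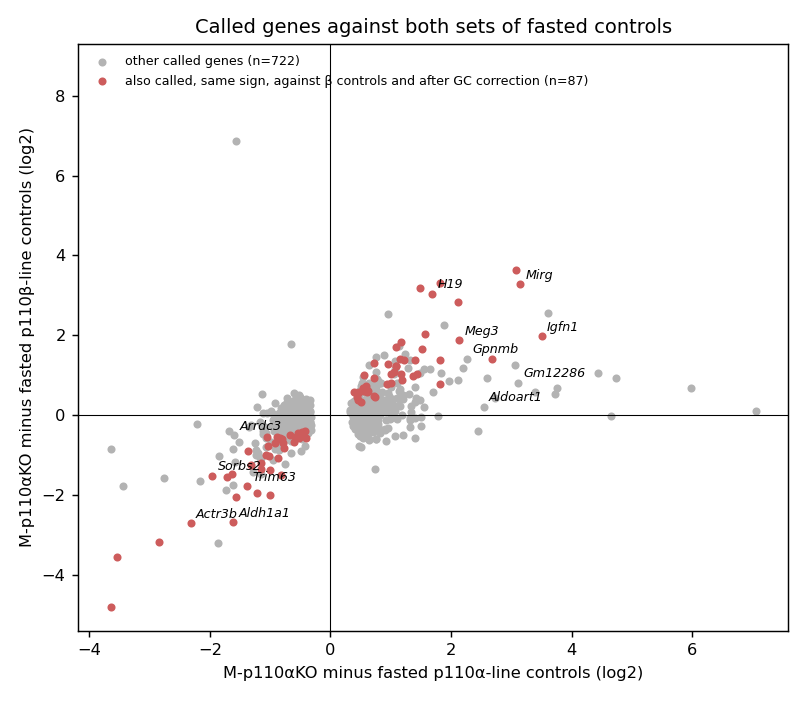
Called genes against both sets of fasted controls. Each point is 1 of the 809 called genes, of 811, that were also tested over 29 libraries, with its log2 difference from the fasted p110α controls on the horizontal axis and from the fasted p110β controls on the vertical axis, and the 87 genes kept by the GC correction and the p110β comparison are in red. On both axes, 84 rises and 69 falls were called with the same sign.

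In the principal components of the 14 fasted libraries of both lines, the first component (31.3% of variance) set the lines apart, and the knockouts differed from the p110α controls by -8.37 (exact two-sided permutation p = 0.2). The second and the third components (12.4% and 11.4%) separated knockouts from p110α controls, by -30.11 and -30.44 (each p = 0.0286 by the exact permutation test). On these components the p110β libraries ran from -26.5 to 21.8 and from -23 to 23.4. The 3 fasted p110β controls were at -21.9, -26.5 and 11.8 on the second, and the knockouts at -13, -25.3 and -18.6. With the 500 most variable genes, the difference on the second component was 0.07 (exact permutation p = 0.971), and that on the third was -22.89 (p = 0.0286, exact permutation test).

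Fasted M-p110αKO muscle had less mRNA of the main fasting-induced ubiquitin ligases. Trim63, which encodes MuRF1 (GRCm38 chr4:134315120-134329629, plus strand), stood at 4473, 4129, 5237 and 3593 CPM in the 4 controls and 2212, 1424 and 1382 CPM in the 3 knockouts. All knockouts lay below all controls, with means of 4358 ± 689 and 1673 ± 467 CPM (SD, n = 4 and 3). The log2 difference was -1.38 ± 0.24 (adjusted p = 0.00402). It was -1.49 after the GC correction (adjusted p = 0.00379) and -1.78 against the fasted p110β controls (adjusted p = 0.000128). In fed mice, Trim63 was at 559 to 713 CPM in controls and 443 to 1090 CPM in knockouts, and the fasted effect differed from the fed effect by -1.48 (adjusted p = 0.0489 for the interaction). The interaction test passed 60 genes in all, but 4 after the GC correction and from 2 (without fed control 1) to 74 (without knockout 15) with 1 library left out, 16 or fewer without any of replicates 2, 5, 6, 9, 10, 11, 12 and 14, and 39 and 27 without 8 and 13.

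Fbxo32, which encodes atrogin-1 (GRCm38 chr15:58175879-58214932, minus strand), was at 4139, 3815, 4094 and 3989 CPM in the controls and 2186, 2238 and 2496 CPM in the knockouts. The groups were again apart, and the log2 difference was -0.80 ± 0.12 (adjusted p = 0.00148; -0.70 after the GC correction, adjusted p = 0.00296). Against the fasted p110β controls, at 2760 to 3410 CPM, it was -0.39 (adjusted p = 0.138), and the interaction with feeding was -0.68 (adjusted p = 0.0719). Fasting itself was accompanied by a difference of 2.89 for Fbxo32 and 2.78 for Trim63 in the controls, a comparison that uses the same fasted controls. In the fasted p110β knockouts the differences from their own controls were -0.19 and -0.61 (adjusted p = 0.704 and 0.305), and 0.878% of all genes passed there (112 genes, and 37 to 302 with 1 of the 7 libraries left out).

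**Figure D3:**
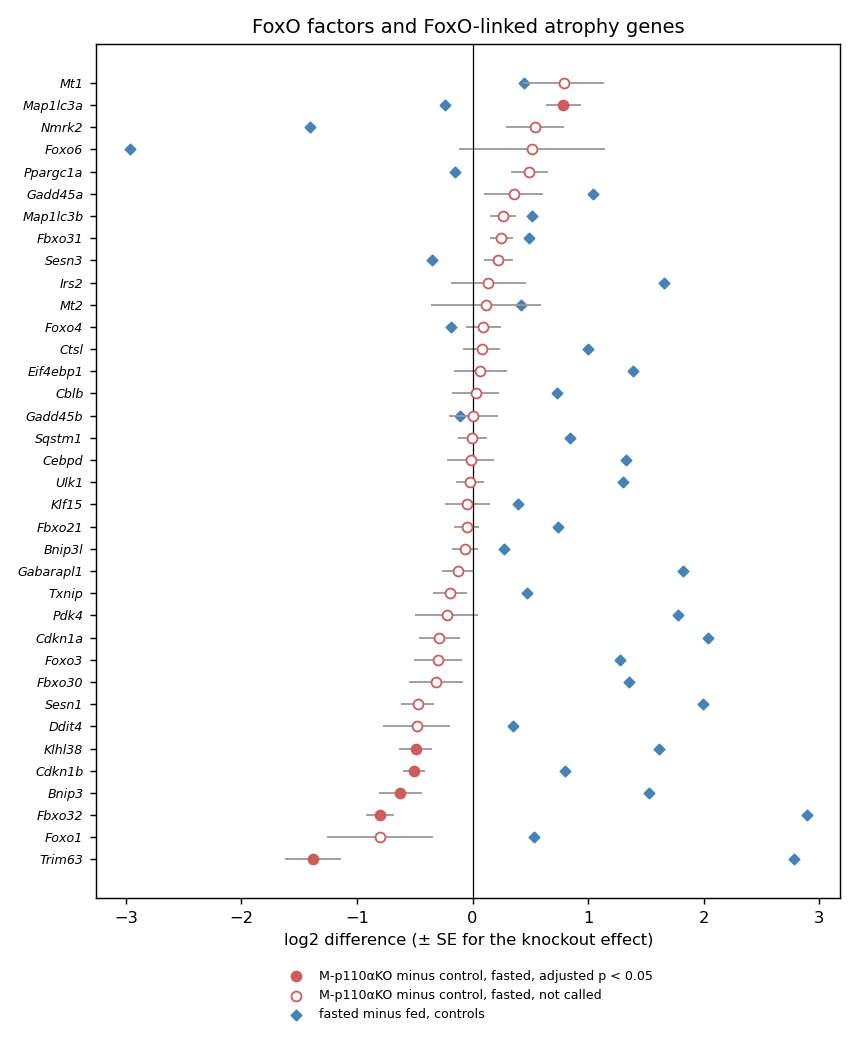
Genes of the FoxO list in fasted muscle. Points give the log2 difference of knockouts from controls with its SE (filled where adjusted p was under 0.05) for 36 genes, and diamonds give the difference of fasted from fed controls. Trim63 and Fbxo32 lie above 2 on the fasting scale and below 0 on the knockout scale.

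The promoter of Trim63, which fell in the knockouts and is one of the genes that FoxO factors turn on in fasting, is shown. That of Igfn1, the protein-coding gene of the named set with the largest rise, is set beside it. Binding of FoxO factors was not measured, and their part in these values was not tested. Each window runs from 250 bases before to 50 bases after the annotated start (RefSeq, GRCm38.p6), at chr4:134314870-134315169 on the plus strand for Trim63 and chr1:136006293-136006592 on the minus strand for Igfn1, with matches to TGTTTAC, searched on both strands (reverse complement GTAAACA), in capitals.
Trim63: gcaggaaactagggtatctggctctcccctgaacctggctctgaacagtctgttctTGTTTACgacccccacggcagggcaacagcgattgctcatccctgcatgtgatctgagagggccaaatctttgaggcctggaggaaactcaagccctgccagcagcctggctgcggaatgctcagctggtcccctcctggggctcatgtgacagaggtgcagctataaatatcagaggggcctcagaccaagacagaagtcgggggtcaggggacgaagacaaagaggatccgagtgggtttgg
Igfn1: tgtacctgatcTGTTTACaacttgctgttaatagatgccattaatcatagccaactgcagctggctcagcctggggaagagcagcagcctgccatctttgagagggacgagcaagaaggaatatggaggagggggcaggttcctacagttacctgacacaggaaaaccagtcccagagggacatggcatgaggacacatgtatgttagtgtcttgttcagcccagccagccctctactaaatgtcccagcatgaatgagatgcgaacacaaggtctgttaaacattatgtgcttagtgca
Each window held 1 match, 194 bases before the start in Trim63 and 239 bases before it in Igfn1. Of 32851 promoter windows, 3.65% held at least 1 match. Of 9 genes looked up, 5 were in the table, and the windows of Bnip3, Cdkn1b and Arrdc3 held no match.

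Of 37 genes tested in the list of FoxO factors and FoxO-linked atrophy genes, 1 rose and 6 fell (18.9% called, against 6.52% of all genes). The median was -0.02 against 0.003 over all genes, and 1 rose and 5 fell after the GC correction. In the controls, fasting was accompanied by a rise in 24 of the 37 and a fall in 3, against 1910 and 1829 of all 12433 genes. That comparison uses the same fasted controls. Cdkn1b, which encodes the cell cycle inhibitor p27, was at 173, 177, 192 and 199 CPM in the controls and 135, 127 and 129 CPM in the knockouts. It fell by 0.51 on the log2 scale (SE 0.10, adjusted p = 0.00699), with no overlap, and it was also lower in the p110β line than in the p110α line in fed controls (-0.52, adjusted p = 0.000703). Klhl38, a muscle kelch protein gene, fell from 88.6 ± 4.21 to 63.0 ± 4.15 CPM (SD, n = 4 and 3; -0.49 ± 0.14, adjusted p = 0.0481), and Bnip3, a mitophagy receptor gene, from 752 ± 112 to 488 ± 49.7 CPM (-0.62 ± 0.18, adjusted p = 0.0492). Both calls were lost without any 1 of the 7 libraries, with adjusted p up to 0.122 and 0.194.

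Map1lc3a, one of the LC3 genes of the autophagosome membrane, was the rise of the list, from 51.4 ± 4.15 to 88.6 ± 12.8 CPM (SD, n = 4 and 3; 0.78 ± 0.15, adjusted p = 0.00692). After the GC correction it was 0.47 (adjusted p = 0.13), and it was higher in the p110β line too (0.60, adjusted p = 0.00364). The factors themselves did not pass: Foxo1 was at 128, 133, 118 and 89.0 CPM in the controls and 122, 43.6 and 34.8 CPM in the knockouts, where replicate 13 lay among the controls and the other two lay below them, at -0.80 ± 0.46 (adjusted p = 0.313). Leaving out replicate 13 moved the Foxo1 difference to -1.58 (adjusted p = 0.0688), and Foxo3 was at -0.30 (adjusted p = 0.416).

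Several other genes linked to FoxO did not pass the test. The difference was -0.23 for Pdk4, which restrains pyruvate oxidation (adjusted p = 0.675), -0.13 for the autophagy gene Gabarapl1 (adjusted p = 0.625) and -0.47 for Sesn1, a stress sensor gene (adjusted p = 0.0545). Cdkn1a, which encodes p21, was at 73.8, 94.8, 69.9 and 70.2 CPM in the controls and 73.2, 47.1 and 69.2 CPM in the knockouts, and the groups overlapped (-0.29 ± 0.18, adjusted p = 0.351). Arrdc3, which encodes an arrestin-domain protein and was named by its interaction with feeding, was at 757, 649, 1145 and 563 CPM in the controls and 353, 195 and 225 CPM in the knockouts. It fell by 1.59 on the log2 scale (SE 0.33, adjusted p = 0.0101, but 0.0667 without replicate 14), and it was lower by a like amount in the p110β line (-1.75, adjusted p = 0.000344).

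Against the p110α controls, lower levels were not limited to Trim63 and Fbxo32 among muscle ubiquitin ligases and deubiquitinases. There 1 of 45 genes rose and 9 fell (22.2% called, against 6.52% of all genes), with a median of -0.172. After the GC correction 0 rose and 4 fell. Against the fasted p110β controls the median was 0.007, and 2 of the 9 falls and 0 rises were called with the same sign. Of the falls, 1, that of Trim63, was kept by both checks. Asb5, a substrate adaptor of cullin ligases, was at 805, 712, 777 and 718 CPM in the controls and 440.3, 448 and 381 CPM in the knockouts, fully apart (-0.83 ± 0.19, adjusted p = 0.0181, but up to 0.0619 without replicate 14 or 15). Asb15 (-0.66), the ligase gene Wwp1 (-0.53) and the deubiquitinase gene Usp14 (-0.55) fell too, with adjusted p of 0.0166, 0.016 and 0.0163. All 3 calls were lost without replicate 14 (adjusted p = 0.0749, 0.077 and 0.0921) and after the GC correction (adjusted p = 0.0929, 0.0948 and 0.161). Stub1, which encodes the chaperone-linked ligase CHIP, was the rise (0.82 ± 0.24, adjusted p = 0.0467; up to 0.266 with 1 library left out, and lost without any of replicates 9 to 14).

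Of 46 proteasome subunit genes, 1 rose and 3 fell (8.7% called, against 6.52% of all genes), with a median of -0.011. Against the fasted p110β controls, 0 of these calls were made with the same sign. Psme4, which encodes the activator PA200, was at 936, 919.7, 1113 and 872 CPM in the controls and 659, 553 and 613 CPM in the knockouts. It fell with no overlap (-0.66 ± 0.12, adjusted p = 0.00416; after the GC correction adjusted p = 0.0202), and it was also lower in fed knockouts (-0.53, adjusted p = 0.0243). Psma1, a core particle subunit gene, fell by 0.85 on the log2 scale (adjusted p = 0.0247), and this call was lost without replicate 10, 12, 14 or 15 (adjusted p up to 0.117).

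Autophagy and lysosome genes were called in both directions. Of 50 autophagy and mitophagy genes 2 rose and 3 fell (10% called, median 0), and of 95 lysosome genes 5 rose and 2 fell (7.37% called, median 0.031), against 6.52% called over all genes. After the GC correction 0 and 1 rose and 2 and 1 fell. Against the fasted p110β controls, 1 of the autophagy falls and 0 of the other calls in these lists were made with the same sign. Snap29, which encodes a SNARE protein that acts in fusion of autophagosomes with lysosomes, stood at 99.6, 94.5, 103 and 84.5 CPM in the controls and 55.7, 48.6 and 52.7 CPM in the knockouts. It fell with separate groups by 0.87 on the log2 scale (SE 0.10, adjusted p = 0.000123; after the GC correction adjusted p = 0.000568). Against fasted p110β controls it was -0.41 (adjusted p = 0.192). Atg4a, a protease gene for LC3-family processing, was at 20.0, 24.9, 23.1 and 22.8 CPM in the controls and 14.5, 13.9 and 14.5 CPM in the knockouts, again apart. The difference was -0.66 ± 0.13 (adjusted p = 0.00684), -0.53 after the GC correction (adjusted p = 0.0367) and -0.49 against the p110β controls (adjusted p = 0.0412). Tcirg1, which encodes a subunit of the proton pump of lysosomes, was the largest rise in the lysosome list, from 3.28 ± 0.803 to 7.10 ± 0.846 CPM (SD, n = 4 and 3). Its rise was 1.10 ± 0.21 (adjusted p = 0.00648), and it was at -0.11 against the p110β controls (adjusted p = 0.797).

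**Figure D4:**
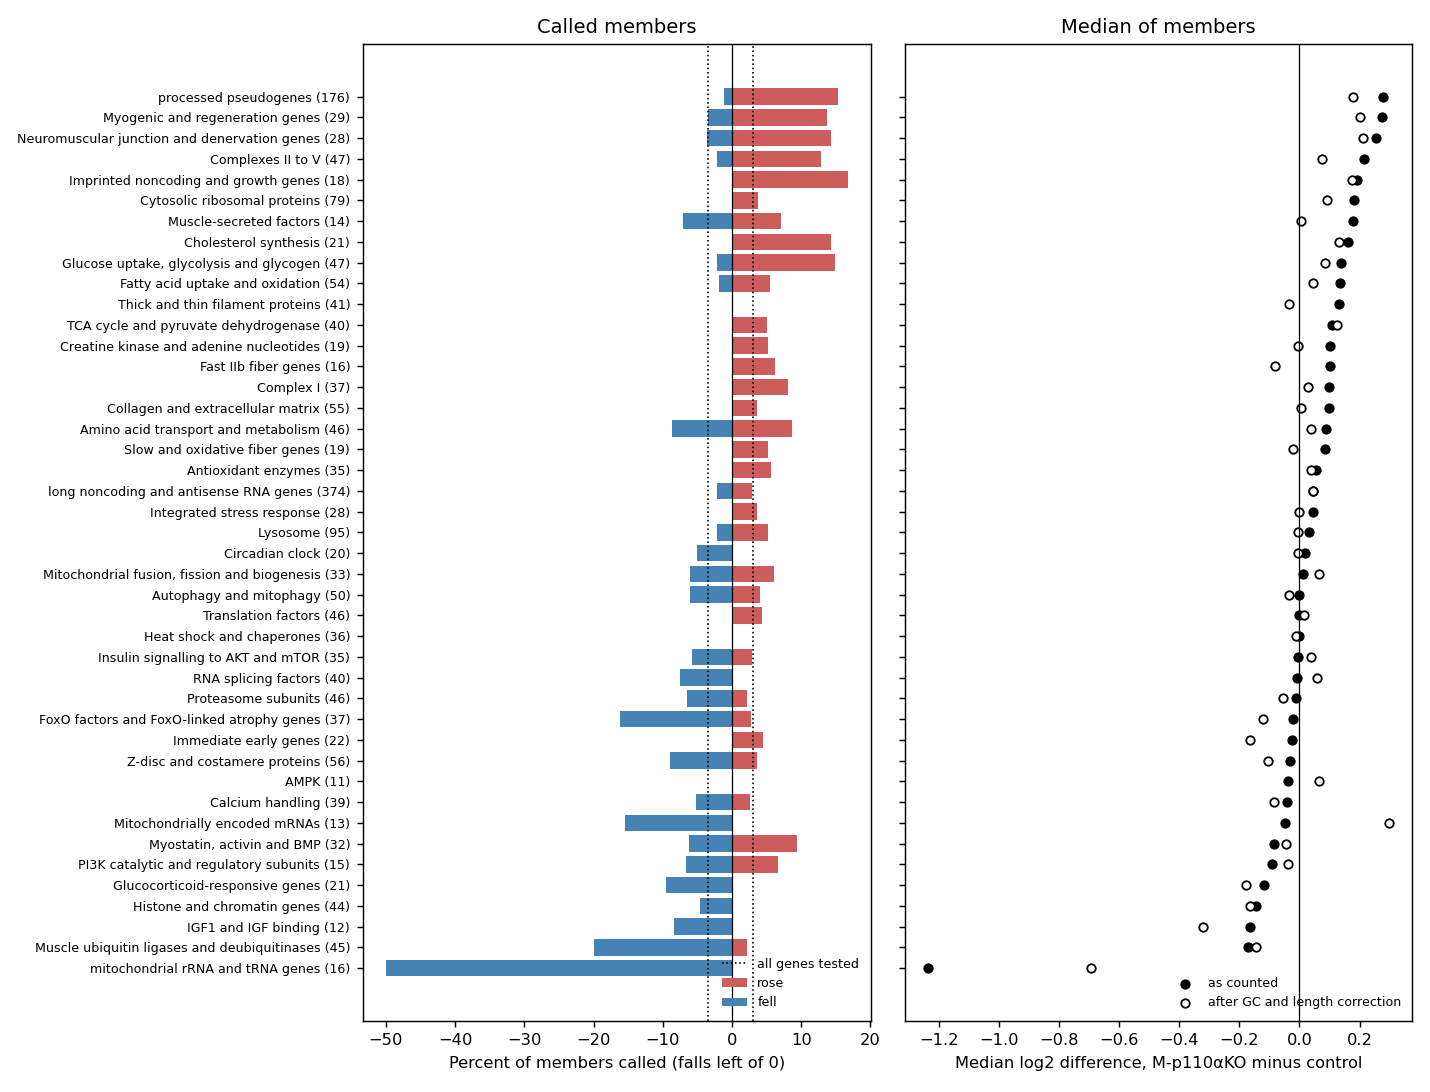
Gene lists in fasted M-p110αKO muscle. For each list the percent of tested genes that rose and fell is shown, with the median log2 difference as counted and after the GC correction, and dotted lines in the left panel mark the percent over all 12433 genes. Ubiquitin ligases, with 9 of 45 genes lower, have more falls than the 3.51% of all genes.

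Among the subunits and regulators of PI3K, 1 of 15 genes rose and 1 fell (13.3% called, against 6.52% of all genes), with a median of -0.09. Pik3cd encodes p110δ, the catalytic subunit best known from leukocytes (GRCm38 chr4:149649168-149702571, minus strand). It stood at 4.68, 6.40, 3.93 and 5.70 CPM in the controls and 10.2, 11.3 and 11.9 CPM in the knockouts. Every knockout was above every control, and the rise was 1.09 ± 0.17 (adjusted p = 0.00225; after the GC correction 0.90, adjusted p = 0.0105). Against the fasted p110β controls it was 0.23 (adjusted p = 0.504), and in fed mice 0.10 (adjusted p = 0.842), with an interaction of 0.98 (adjusted p = 0.0624). Among the macrophage markers, a population in which the gene is active, 0 of 6 passed and the sum was 39.6 to 76.6 CPM in the controls and 24.1 to 86.2 CPM in the knockouts.

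Pik3cb, which encodes p110β, was at 15.1, 16.5, 13.2 and 14.6 CPM in the controls and 12.8, 12.2 and 13.3 CPM in the knockouts, without a call (-0.22 ± 0.14, adjusted p = 0.378). The regulatory subunit gene Pik3r1 was at -0.26 (adjusted p = 0.666) and the phosphatase gene Inpp5k, whose product acts on the PI3K product, at 0.21 (adjusted p = 0.222). Pik3ip1, which encodes a PI3K inhibitor, fell from 96.4 ± 5.12 to 71.3 ± 9.65 CPM (SD, n = 4 and 3; -0.44 ± 0.12, adjusted p = 0.043). This call held without replicate 14 and was lost without any other library (adjusted p up to 0.135).

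Further along insulin signaling, 1 of 35 genes rose and 2 fell (8.57% called, against 6.52% of all genes), with a median of -0.005. Akt1, a kinase gene of the pathway, was at 50.7, 51.1, 42.3 and 45.0 CPM in the controls and 78.9, 77.7 and 65.5 CPM in the knockouts. It rose with separate groups by 0.65 ± 0.10 (adjusted p = 0.00175; after the GC correction adjusted p = 0.0103), but was lower than in fasted p110β controls (-0.61, adjusted p = 0.0211). Akt2, the main AKT gene of insulin-stimulated glucose uptake, was at 0.34 ± 0.12 (adjusted p = 0.0828). Grb14, an adaptor that inhibits the insulin receptor, was at 8.75, 7.91, 12.6 and 12.9 CPM in the controls and 3.81, 5.21 and 5.24 CPM in the knockouts. All knockouts were lower, and the fall of 1.15 on the log2 scale (SE 0.22, adjusted p = 0.00768) had a counterpart in fed mice (-1.02, adjusted p = 0.0144) and against the fasted p110β controls (-1.20, adjusted p = 0.00111). In the fed comparison 0.611% of genes passed, among them 16 of the 375 fasted rises and 22 of the 436 fasted falls with the same sign. Gsk3b, a kinase gene of glycogen control, fell by 0.59 on the log2 scale (adjusted p = 0.0211), a call lost without replicate 9, 10 or 14 (adjusted p up to 0.118).

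Fasted knockouts had higher levels of imprinted noncoding RNAs. Mirg, a host transcript of microRNAs in the Dlk1-Dio3 region (GRCm38 chr12:109729764-109749460, plus strand), was at 1.63, 1.04, 1.84 and 0.393 CPM in the controls and 8.48, 8.72 and 14.9 CPM in the knockouts. Meg3, the long noncoding RNA of the same region (chr12:109541001-109571726, plus strand), was at 3.97, 5.27, 3.01 and 1.57 CPM in the controls and 11.6, 19.9 and 14.5 CPM in the knockouts. H19, the noncoding RNA next to Igf2 (chr7:142575529-142578143, minus strand), was at 198, 237, 266 and 298 CPM in the controls and 659, 771 and 986 CPM in the knockouts. For all 3 genes every knockout exceeded every control.

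The rise was 3.15 ± 0.32 for Mirg, 2.13 ± 0.33 for Meg3 and 1.69 ± 0.20 for H19 (adjusted p = 4.54e-05, 0.00155 and 0.000191), and it was called after the GC correction (adjusted p = 0.00013, 0.00293 and 0.00293). Against the fasted p110β controls the values were 3.28, 1.88 and 3.04 (adjusted p = 6.58e-06, 0.000944 and 1.12e-07). In fed knockouts Mirg and H19 were higher as well (2.18 and 1.24, adjusted p = 0.00409 and 0.00409), and Meg3 was at 1.06 (adjusted p = 0.141). H19 was also higher in fasted p110β knockouts than in their controls (1.18, adjusted p = 0.0216). In the list of 18 imprinted noncoding and growth genes these 3 were the only calls (16.7%, against 6.52% of all genes), and Igf2 was at 0.36 ± 0.16 (adjusted p = 0.19).

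Igfn1, which encodes a protein of the Z-disc (GRCm38 chr1:135953578-136006342, minus strand), rose most among named protein-coding genes. It was at 24.3, 9.98, 46.5 and 33.3 CPM in the controls and 182, 389 and 392 CPM in the knockouts. The lowest knockout was well above the highest control, for a rise of 3.50 ± 0.40 (adjusted p = 0.000123; 3.35 after the GC correction, adjusted p = 0.000557). Fed knockouts held 114 to 225 CPM of Igfn1 and fed controls 24.5 to 53.6 CPM (2.25, adjusted p = 0.00795). The fasted p110β controls ran from 14.8 to 122 CPM, and the difference from them was 1.97 (adjusted p = 0.00886).

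Sorbs2, an adaptor gene of Z-discs and costameres, went the other way, from 254, 252, 182 and 157 CPM in the controls to 51.5, 66.5 and 44.8 CPM in the knockouts. With no overlap, the difference was -1.96 ± 0.22 (adjusted p = 0.000123), and it was also lower in fed knockouts (-1.11, adjusted p = 0.012) and against the fasted p110β controls (-1.52, adjusted p = 0.00113). Dmd, which encodes dystrophin, fell from 149.7 ± 11.8 to 99.7 ± 5.64 CPM (SD, n = 4 and 3; -0.59 ± 0.12, adjusted p = 0.00917). It was at -0.34 after the GC correction (adjusted p = 0.123) and was lower in the p110β line (-0.86, adjusted p = 0.000348). Of 56 Z-disc and costamere genes, 2 rose and 5 fell (12.5% called, against 6.52% of all genes). By edgeR 0 of 41 thick and thin filament genes passed. At an unadjusted p under 0.05, 7 of them were higher and 0 lower, against 1370 and 1458 of all 12433 genes. DESeq2 called 2 higher, against 493 of all genes. The fast myosin gene Myh4 was at -0.28 (adjusted p = 0.221) and the actin gene Acta1 at 0.42 (adjusted p = 0.0994).

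**Figure D5:**
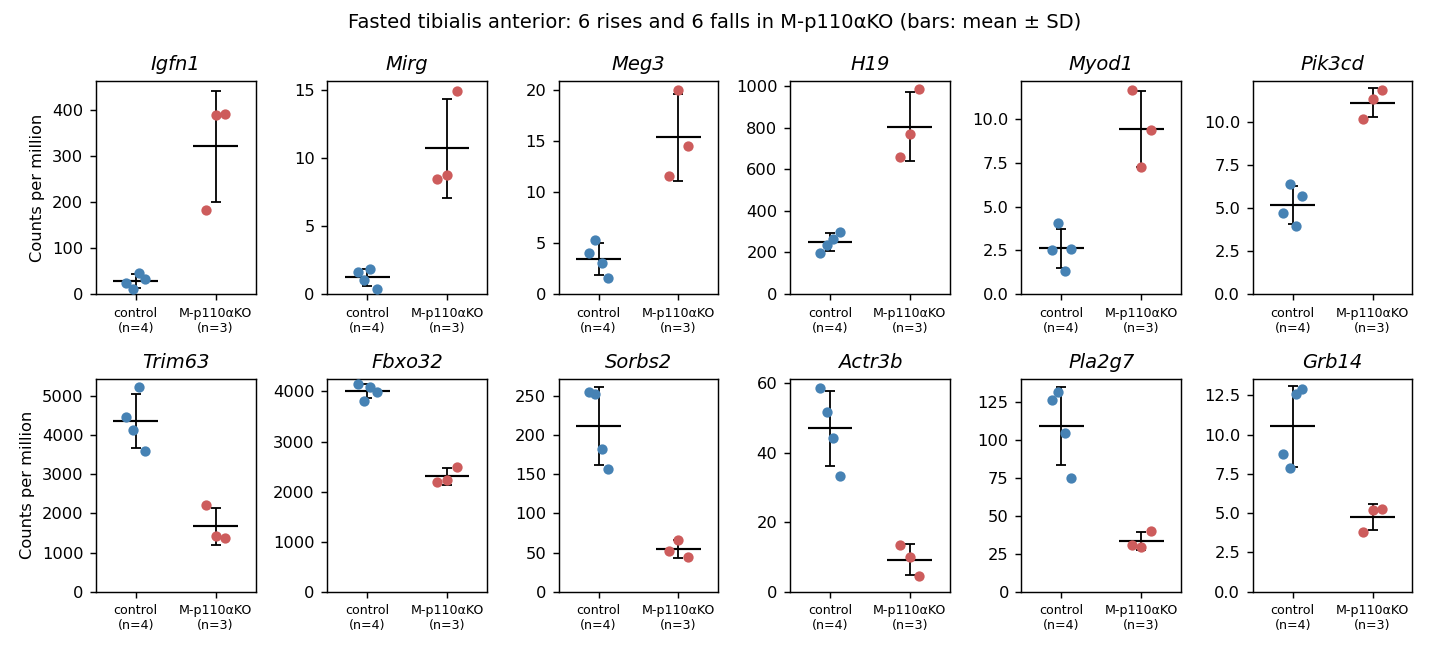
Selected genes in each fasted library of the p110α line. Points are CPM (linear axis) of the 4 controls and 3 knockouts, with the mean and SD, for Igfn1, Mirg, Meg3, H19, Myod1 and Pik3cd, in which all knockouts lie above the controls, and Trim63, Fbxo32, Sorbs2, Actr3b, Pla2g7 and Grb14, in which all lie below.

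Myod1, the myogenic transcription factor gene (GRCm38 chr7:46376474-46379099, plus strand), had 2.55, 4.05, 1.31 and 2.56 CPM in the controls and 11.7, 7.29 and 9.40 CPM in the knockouts. Every knockout lay higher, and the rise was 1.82 ± 0.30 (adjusted p = 0.00246; after the GC correction adjusted p = 0.0103). Fed controls held 10.8 to 17.3 CPM of Myod1 and fed knockouts 7.66 to 14.9 CPM, so that fasting was accompanied by a difference of -2.34 in controls, and the interaction was 2.00 (adjusted p = 0.0359). Against the fasted p110β controls, at 4.31 to 6.73 CPM, the difference was 0.78 (adjusted p = 0.047). Myog, the myogenin gene, was at 0.97 ± 0.35 (adjusted p = 0.104) with overlapping groups.

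Of 29 myogenic and regeneration genes 4 rose and 1 fell (17.2% called, against 6.52% of all genes), with a median of 0.274. Against the fasted p110β controls, 1 of these rises, that of Myod1, and the fall were called with the same sign. The other rises were Id1 (0.95 ± 0.21, adjusted p = 0.0129), Id3 (0.49 ± 0.14, adjusted p = 0.0401) and Vgll2 (0.59 ± 0.15, adjusted p = 0.0268), and the fall was Mef2a (-0.51 ± 0.11, adjusted p = 0.0104). Id1 and Id3 encode inhibitors of helix-loop-helix factors such as MyoD, while Vgll2 and Mef2a encode regulators of muscle transcription. None of these 4 was called after the GC correction (adjusted p = 0.108, 0.453, 0.262 and 0.0769). With libraries left out, the calls were lost for Id1 without replicate 13, for Mef2a without 14, for Vgll2 without 10, 11, 12, 13 or 14 and for Id3 without any but 11 (adjusted p up to 0.0772, 0.067, 0.162 and 0.166).

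Acetylcholine receptor genes of the neuromuscular junction were higher. Chrna1, the α1 subunit gene, was at 6.41, 4.90, 14.2 and 12.3 CPM in the controls and 15.6, 19.1 and 44.4 CPM in the knockouts. The groups did not overlap, but replicate 15 was far above the others, and the rise of 1.49 ± 0.36 (adjusted p = 0.0232) became 0.90 without it (adjusted p = 0.126), and was lost without control replicate 9 or 10 too (adjusted p = 0.0672 and 0.0599). Chrnb1, Chrne and Rapsn, which encode the β and ε subunits and the clustering protein rapsyn, rose by 0.54, 0.65 and 0.71 (adjusted p = 0.0183, 0.0379 and 0.0332). Dach2, a transcriptional repressor gene of the denervation response, was at 6.01, 1.70, 2.88 and 9.24 CPM in the controls and 0.860, 0.130 and 0.308 CPM in the knockouts, with 1 to 7 reads in each knockout library. It was lower in all 3 knockouts (-3.44 ± 0.75, adjusted p = 0.013), reached -4.47 without replicate 13 (adjusted p = 0.0228) and was not called without replicate 14 (adjusted p = 0.0758). In the list of 28 genes 4 rose and 1 fell (17.9% called, against 6.52% of all genes). The median of the list was 0.256, and -0.046 against the fasted p110β controls. Of the 5 calls, those of Chrnb1, Chrne and Rapsn were not made after the GC correction (adjusted p = 0.0734, 0.174 and 0.154). Nor were these 3 made without replicate 14 (adjusted p = 0.0923, 0.207 and 0.22). Single other libraries also ended these calls, replicate 15 for Chrnb1, 9 to 13 for Chrne and 10 to 12 for Rapsn.

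Nuclear-encoded genes of oxidative phosphorylation had more rises than falls against the p110α controls. Of 37 complex I genes 3 rose and 0 fell (median 0.099), and of 47 genes of complexes II to V 6 rose and 1 fell (median 0.214), or 8.11% and 12.8% risen against 3.02% of all genes. The direction did not hold against the fasted p110β controls, where the medians were -0.232 and -0.147 and 0 and 1 of these rises were called. Between fed controls the p110β line was higher, with medians of 0.372 and 0.242, and after the GC correction the medians were 0.028 and 0.074. Of these rises, those of Sdha, Cox6a2 and Cox7a2l were called after the GC correction. Cox6a2, the muscle form of a cytochrome c oxidase subunit, was at 229, 206, 238 and 222 CPM in the controls and 447, 367 and 451 CPM in the knockouts. The groups were apart (0.92 ± 0.17, adjusted p = 0.00594; after the GC correction 0.71, adjusted p = 0.0228), the interaction with feeding was 1.07 (adjusted p = 0.0489), and against the fasted p110β controls the value was -0.14 (adjusted p = 0.692). Ndufs8, a complex I subunit gene, rose from 61.9 ± 9.90 to 96.1 ± 9.52 CPM (SD, n = 4 and 3; 0.64 ± 0.12, adjusted p = 0.00566) but was at 0.37 after the GC correction (adjusted p = 0.113).

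Sdha, which encodes the catalytic subunit of succinate dehydrogenase, belongs to both complex II and the TCA cycle. It stood at 1225, 1228, 1280 and 1325 CPM in the controls and 1851, 1510 and 1839 CPM in the knockouts. All knockouts were higher (0.46 ± 0.10, adjusted p = 0.0134, and 0.0573 without replicate 13), as they were after the GC correction (0.49, adjusted p = 0.0103) and against the fasted p110β controls (0.37, adjusted p = 0.0204). Of 40 genes of the TCA cycle and pyruvate dehydrogenase, 2 rose and 0 fell (5% called, against 6.52% of all genes), with a median of 0.108. Uqcr10, a complex III subunit gene, was the fall among complexes II to V, from 101 ± 7.99 to 68.0 ± 12.4 CPM (-0.57 ± 0.17, adjusted p just under the threshold and up to 0.159 with 1 library left out, the call being lost without any of the 7). Of the regulators, Perm1 and Esrra, which act with PGC-1 on mitochondrial genes, rose by 0.65 ± 0.12 and 0.57 ± 0.12 (adjusted p = 0.00594 and 0.0104). Esrra had an adjusted p of 0.0843 without replicate 14. Neither gene was called with the same sign against the fasted p110β controls.

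The rRNAs and tRNAs made in the mitochondria were lower, whereas their mRNAs went both ways. Of 16 mitochondrial rRNA and tRNA genes 8 fell (50%, against 3.51% of all genes). All 16 had differences below 0, with a median of -1.236, and 3 of them were called after the GC correction. The 12S rRNA gene mt-Rnr1 was at 2601, 2411, 2763 and 4285 CPM in the controls and 1238, 964 and 1341 CPM in the knockouts, fully apart (-1.35 ± 0.25, adjusted p = 0.00546). The 16S rRNA gene mt-Rnr2 fell from 6150 ± 933 to 3120 ± 153 CPM (SD, n = 4 and 3; -0.98 ± 0.18, adjusted p = 0.00594). Both were called after the GC correction (adjusted p = 0.0035 and 0.00831), whereas the alanine tRNA gene mt-Ta (-1.21 ± 0.23, adjusted p = 0.00594) was not (adjusted p = 0.373). Libraries made from polyadenylated RNA capture these RNAs in a way that varies with preparation, and the part of preparation in these values was not tested.

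Of 13 mitochondrially encoded mRNAs 0 rose and 2 fell (15.4% called, against 6.52% of all genes), with 6 differences above 0 and 7 below. Their median was -0.048, but 0.299 after the GC correction, where 1 fall was called. mt-Nd4, which encodes a complex I subunit, was at 8799, 8541, 11180 and 10060 CPM in the controls and 4341, 5575 and 5497 CPM in the knockouts, with no overlap (-0.91 ± 0.15, adjusted p = 0.00223; after the GC correction adjusted p = 0.00836). Its fasted effect differed from the fed effect by -1.14 (adjusted p = 0.0334). mt-Co3, a cytochrome c oxidase subunit gene, was at 42.4, 35.6, 37.7 and 49.3 CPM in the controls and 95.5, 92.6 and 159 CPM in the knockouts, above the controls in all 3 without a call (1.48 ± 0.63, adjusted p = 0.169). The ATP synthase subunit gene mt-Atp8 was at 2.25 ± 0.86 (adjusted p = 0.122), a value that rested on replicate 13 and was -0.36 without it (adjusted p = 0.869). Against the fasted p110β controls mt-Nd4 was at -0.27 and mt-Rnr1 at -0.31 (adjusted p = 0.285 and 0.588). The mitochondrial share of all reads was 8.28 to 10.5% in the controls and 6.99 to 9.00% in the knockouts, which overlapped.

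Genes of fuel use moved as follows. Of 47 genes of glucose uptake, glycolysis and glycogen 7 rose and 1 fell (17% called, against 6.52% of all genes), with a median of 0.139. Against the fasted p110β controls 3 of the rises were called with the same sign, and 1 gene was called after the GC correction, Stbd1. Stbd1 encodes a glycogen-binding protein and was at 37.3, 38.5, 43.3 and 32.5 CPM in the controls and 60.6, 72.0 and 121 CPM in the knockouts, with no overlap (1.15 ± 0.22, adjusted p = 0.00594; after the GC correction adjusted p = 0.0195; against the p110β controls 1.40, adjusted p = 0.000673). Slc2a1, the GLUT1 glucose transporter gene, rose by 0.79 ± 0.19 (adjusted p = 0.0194) and Hk2, the main muscle hexokinase gene, by 0.48 ± 0.12 (adjusted p = 0.0239). Slc2a1 was not called without replicate 10 or 14 (adjusted p up to 0.0691), nor Hk2 without 9, 10, 12 or 15 (adjusted p up to 0.0985).

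Of 54 genes of fatty acid uptake and oxidation, 3 rose and 1 fell, and the 7.41% called was near the 6.52% of all genes. The median was 0.136, and -0.102 against the fasted p110β controls. Slc27a1, which encodes the fatty acid transport protein FATP1, was at 154, 138, 135 and 172 CPM in the controls and 257, 274 and 217 CPM in the knockouts. The groups were apart (0.73 ± 0.13, adjusted p = 0.00501; after the GC correction adjusted p = 0.0213), with a difference of 0.17 from the fasted p110β controls (adjusted p = 0.489). Plin3, a lipid droplet coat gene, rose from 17.2 ± 4.25 to 44.5 ± 7.40 CPM (SD, n = 4 and 3; 1.38 ± 0.26, adjusted p = 0.00613), and was called after the GC correction and against the p110β controls (adjusted p = 0.0106 and 0.0186).

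Amino acid genes were called in both directions, 4 higher and 4 lower of 46 (17.4% called, against 6.52% of all genes). Against the fasted p110β controls, 0 of these rises and 1 of these falls were called with the same sign. Mccc1, of leucine breakdown, rose by 0.79 ± 0.15 (adjusted p = 0.00719) and the glutamine transporter gene Slc38a3 by 0.76 ± 0.16 (adjusted p = 0.0116, and 0.0547 without replicate 13). Mccc1 was higher in the p110β line also (0.96, adjusted p = 0.000134). Odc1, the rate-limiting enzyme gene of polyamine synthesis, fell by 0.88 on the log2 scale (adjusted p = 0.0093, and 0.0596 without replicate 14). Shmt2, of mitochondrial serine and folate metabolism, rose from 22.3 ± 1.63 to 39.8 ± 3.13 CPM (SD, n = 4 and 3). Its rise of 0.84 ± 0.14 (adjusted p = 0.00297) was the 1 call among 28 genes of the integrated stress response (3.57% called, against 6.52% of all genes). Shmt2 was not called with the same sign against the fasted p110β controls.

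Several large changes fell outside these lists, and those named next were also called after the GC correction and against the fasted p110β controls. Actr3b, which encodes a form of the actin-nucleating protein Arp3, was at 58.5, 51.7, 44.3 and 33.2 CPM in the controls and 13.4, 9.90 and 4.47 CPM in the knockouts. Every knockout was lower (-2.32 ± 0.38, adjusted p = 0.00246), in fed mice (-1.48, adjusted p = 0.0361) and against the fasted p110β controls (-2.71, adjusted p = 8.03e-06) likewise. Pla2g7, which encodes a platelet-activating factor hydrolase, was at 126, 131, 104 and 74.8 CPM in the controls and 30.9, 29.2 and 39.8 CPM in the knockouts, fully apart (-1.72 ± 0.34, adjusted p = 0.00842). Its difference was 0.05 in fed mice (adjusted p = 0.971) and -1.54 from the p110β controls (adjusted p = 0.00122). Aldh1a1, a retinaldehyde dehydrogenase gene, fell from 207 ± 82.0 to 67.5 ± 23.9 CPM (SD, n = 4 and 3; -1.61 ± 0.32, adjusted p = 0.00903, and 0.0531 without replicate 14).

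Tmem9, a gene for a transmembrane protein of lysosomes, was at 5.09, 3.96, 4.33 and 6.00 CPM in the controls and 13.2, 18.6 and 19.6 CPM in the knockouts. All knockouts were higher (1.81 ± 0.24, adjusted p = 0.000453), as in fed mice (1.02, adjusted p = 0.0439) and against the p110β controls (1.38, adjusted p = 0.000831). Npr3, the clearance receptor gene of natriuretic peptides, was at 20.7, 14.7, 27.1 and 6.19 CPM in the controls and 46.2, 41.4 and 58.7 CPM in the knockouts. It too was higher in each of these comparisons, at 1.52 ± 0.32, 1.67 and 1.66 (adjusted p = 0.0112, 0.018 and 0.0044). Adamts8, a secreted protease gene, rose by 1.82 ± 0.41 (adjusted p = 0.0154, and 0.0753 without replicate 14).

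Other large changes went with the line. Gpnmb, a glycoprotein gene active in macrophages, was at 1.63, 2.54, 3.41 and 1.77 CPM in the controls and 8.11, 4.04 and 21.7 CPM in the knockouts. Replicate 15 was highest by far, and the rise of 2.27 ± 0.53 (adjusted p = 0.0183) became 1.40 without it (adjusted p = 0.111) and was also lost without replicate 9 or 12 (adjusted p = 0.0562 and 0.0501). The gene was 2.67 higher in the p110β line (adjusted p = 0.00309). Kdm6a, a histone demethylase gene, fell from 51.6 ± 7.19 to 26.0 ± 3.18 CPM (SD, n = 4 and 3; -0.99 ± 0.16, adjusted p = 0.00242). It was at 0.10 against the fasted p110β controls (adjusted p = 0.722) and -0.70 between the lines (adjusted p = 0.00209).

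Of the remaining lists, the cytosolic ribosomal proteins had 3 rises and 0 falls among 79 genes with a median of 0.182, and 65 of the 79 lay above 0. The share that rose, 3.8%, was near the 3.02% of all genes, and the median was 0.093 after the GC correction, -0.429 against the fasted p110β controls and 0.413 for the p110β line over the p110α line in fed controls. RNA splicing factors had 0 rises and 3 falls among 40, and histone and chromatin genes 0 and 2 among 44, with medians of -0.009 and -0.145. The shares called were 7.5% and 4.55%, against 6.52% of all genes. Heat shock and chaperone genes (36) and AMPK subunits (11) had 0 calls by edgeR. At an unadjusted p under 0.05, 1 heat shock gene was higher and 4 lower and 3 AMPK genes were higher and 1 lower. Of all 12433 genes, 1370 were higher and 1458 lower at that level. DESeq2 called 1 heat shock gene and 0 AMPK genes, and 493 rises and 609 falls over all genes. Cholesterol synthesis had 3 rises among 21 genes (14.3%, against 3.02% of all genes), of which 0 were called after the GC correction. Of 39 calcium handling genes, 1 rose and 2 fell (7.69% called, against 6.52% of all genes). Against the fasted p110β controls, 0 of these calls were made with the same sign. Ppp3cb, a catalytic subunit gene of calcineurin, was at 438 ± 42.7 CPM in the controls and 270.2 ± 11.8 CPM in the knockouts (SD, n = 4 and 3). Its difference was -0.70 ± 0.11 (adjusted p = 0.00242).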

How the data were processed

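RNA of TA muscle was sequenced by the authors from libraries made with the NEBNext mRNA kit. Per the labels, the submitters' processing notes name STAR, featureCounts and the build GRCm38. Software versions, the annotation and the strand setting were not stated. Deposited by the authors were raw read counts of 48023 genes in 29 libraries. Gene names and GC content were taken from GENCODE M21, which matched 47310 gene IDs; the 713 others held 0.0292% of counts. Without a stated strand setting, reads of overlapping and antisense genes cannot be told apart.

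Counts were analysed with edgeR 4.0.16 in R 4.3.3: genes were filtered with filterByExpr (minimum count 10, minimum total 15), scaled by TMM and fitted with 1 coefficient per group over the 15 libraries of the p110α line, and a quasi-likelihood F test was applied with Benjamini-Hochberg adjustment over 12433 genes at a threshold of 0.05. Comparisons that crossed lines were fitted over 29 libraries (12760 genes). GC and length were corrected per library with splines of 5 degrees of freedom, available for 99.7% of genes. On simulated counts for this comparison, run on 12239 genes, 29.9%, 64.2% and 92.4% of genes changed 1.5-, 2- and 4-fold were recovered. A change under 2-fold was thus often missed in them. The simulation held no trend with GC content and varied neither depth nor the number of libraries. Within the fasted p110α controls and within the fasted knockouts, no pair of libraries agreed within sampling noise. Other pairs were not checked. DESeq2 1.42.0, limma-voom (limma 3.58.1), other scalings and filters, the 7 libraries alone and each library left out were alternatives.

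The genes described and the 53 gene lists were chosen with earlier results of these data known. Named genes were PI3K genes, the 15 largest changes per direction with separate groups and a mean log2 CPM of at least 1, the 12 largest kept by the GC correction and the p110β comparison, and up to 6 members per list. Rps2-ps10, Gm9061, Arrdc3, mt-Tg, Foxo1 and other genes outside this rule were chosen after their values were seen. Some list members, though counted with their lists, are not reported here.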

Additional observations from a re-analysis of the deposited data

Results flagged for a closer look

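In 4 of 91 genes tested, 1 of the 4 fasted controls stood apart from the other 3, by the gap to its nearest neighbour over the range of the group and Dixon's limit for 4 values; chance alone would give about 1 in 20. Cdkn1a (gap over range 0.842) had 73.8, 94.8, 69.9 and 70.2 CPM, and Vgll2 (0.859) had 33.6, 25.3, 25.2 and 26.4 CPM. The long noncoding RNA gene 2310015K22Rik (0.892) had 5.90, 6.03, 7.08 and 5.90 CPM, and the pseudogene Gm9061 (1) had 1 read in 1 control and 0 in the others.

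The effect of the knockout differed between the fasted and the fed state, by the interaction test in edgeR, in 13 of these genes. Over all 12433 genes, 60 (0.483%) passed this test. The genes described were chosen with earlier results known, and Arrdc3 by its interaction, so the 13 cannot be read as a share against all genes. The fasted effect was lower than the fed effect by a log2 difference of -1.479 for Trim63, -0.745 for Cdkn1b, -2.188 for Arrdc3, -1.223 for Cdkn1a, -1.055 for Kdm6a, -1.64 for mt-Rnr1, -1.258 for mt-Rnr2, -1.408 for mt-Ta and -1.137 for mt-Nd4. It was higher by 2.559 for Aldoart1, 2.466 for Gm12286, 1.999 for Myod1 and 1.073 for Cox6a2. Cdkn1a was higher in fed knockouts than in fed controls (0.93, adjusted p = 0.0155) and at -0.29 in fasted ones (adjusted p = 0.351). The GC correction left 4 genes with a called interaction, and the fasted knockout libraries shared the levels of Aldoart1 and Gm12286 with the p110β line, while the fed ones did not; the part of library set or background in these differences was not tested.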

How the results depend on the processing

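Of the 147 named genes that were called, 0 changed direction under the 17 alternatives to the fasted comparison that tested them, while some uncalled genes did. Of 811 calls, the count became 1235 with no filter beyond 1 read (769 falls) and 345 after the GC and length correction (162 rises and 183 falls), and 285 of the 811 were called after it with any sign. With 1 library left out the count was 218 (without replicate 14) to 660 (without 15), with 122 to 322 rises and 96 to 338 falls. The interaction with feeding passed 60 genes, 237 by DESeq2, 4 after the GC correction and 2 to 74 with 1 library left out. The other counts with 1 library left out were 768 to 1604 against the fasted p110β controls, 1421 to 2470 between the lines and 37 to 302 for the p110β knockout, and the GC slope difference was 0.179 to 0.307. On the first principal component the difference turned to 1.14 with the 500 most variable genes (exact permutation p = 0.514) and was -49.48 with genes scaled to unit variance (exact permutation p = 0.0286), and on the second it turned to 0.07 with the 500 genes (exact permutation p = 0.971). The cause was not tested. Of 147 named genes that were called, 78 lost the call under the GC correction and 90 without replicate 14. No paired analysis was possible because no replicate number occurs in more than 1 group. In counts simulated for these libraries, with 3 knockouts of 6302791 to 7734875 reads, changes under 2-fold were often missed.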
